A study of Mus musculus with 36 samples.

Results

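The 79 genes described here encode the nuclear-encoded subunits of the mitochondrial respiratory chain and ATP synthase in ligated left carotid arteries of mice. They were chosen by symbol from the table of 49568 gene symbols: Nduf followed by a, b, c, s or v and a number for complex I, the 4 Sdh genes for complex II, Uqcr for complex III, Cox4 to Cox8 for complex IV, and Atp5 for complex V. Of 90 matching symbols, 6 were named as pseudogenes, 3 were excluded by name (Ndufs5, Cox7a1 and Cox8b), and Cox7b2 and Cox8c had a mean below 1 CPM (the count over the library's total count, on the usual CPM scale). This left 36 genes of complex I, 4 of complex II, 8 of complex III, 14 of complex IV and 17 of complex V. The grouping follows the symbols: Ndufa4 and its paralog Ndufa4l2 are counted with complex I although the Ndufa4 protein is now placed with complex IV, Cox7a2l is known as a factor that joins complexes into supercomplexes, and Atp5s and Atp5sl are not core ATP synthase subunits.

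Each library came from the ligated carotid of a mouse with its own number in the labels, collected 14 days after the vessel was tied. The mice were C57BL/6 (B6, written C57BL/6J in the protocol) or 129X1/SvJ (129X1), and the labels name no engineered allele in either strain. They received vehicle (2 mL/kg/day), the angiotensin receptor blocker valsartan (Val, 27 mg/kg/day) or valsartan combined with the neprilysin inhibitor sacubitril (Sac/val, 60 mg/kg/day). The prophylactic regimen lasted 16 days with its first dose 2 days ahead of surgery, and the therapeutic regimen lasted 7 days with its first dose on day 7. Strain, regimen and treatment make 12 groups of 3 libraries, 18 libraries per strain. All groups had the ligation, so no comparison with an uninjured vessel was made, and the age of the mice is not given in the sources used here.

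Complexes I and II take electrons from NADH and succinate and pass them to ubiquinone, complex III hands them to cytochrome c, and complex IV reduces oxygen. Complexes I, III and IV pump protons, and complex V uses the proton gradient to make ATP. In brown fat, which lies beside many large vessels, the uncoupling protein Ucp1 lets protons return without making ATP, and the subunits are abundant there. Skeletal and cardiac muscle are rich in them too, and some subunits have muscle isoforms. Complex II is the one complex with no mitochondrially encoded subunit.

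Transcripts of all 5 complexes were higher in 129X1 than in B6 carotids. The summed share of counts was 1.62% ± 0.451 in B6 and 2.38% ± 0.388 in 129X1 (SD, n = 18 each). Of the 79 genes, 70 were called higher in 129X1, where 16.3% of all genes tested were. Uqcrfs1, the Rieske iron-sulfur protein of complex III, was 1.83-fold higher, and Atp5b, the catalytic beta subunit of ATP synthase, 1.68-fold. No gene of the 79 passed the test in any comparison of Val, Sac/val and vehicle or of the 2 regimens. The brown fat markers moved with the subunits: Ucp1 was 2.83-fold higher in 129X1, and with a brown fat score in the model 4 of the 79 genes and 10.0% of all genes tested were called between strains.

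Library totals ran from 18.96 to 28.97 M counts (median 22.78 M), and all 79 genes passed the filter on low counts that left 18628 genes. The lowest count of any of them in a library was 12 (Cox6a2), and 75 had at least 100 counts in every library. Smooth muscle markers, which define the labelled artery, were present throughout, with Myh11 at 37.1 to 655 CPM (median 276), but markers of neighbouring tissues differed widely between libraries. The summed CPM of 10 brown fat markers ran from 239 to 5743 and that of 14 skeletal muscle markers from 34.0 to 41841. Rag1, a thymus marker, was at or above 10 CPM in 16 libraries. Thymus markers summed to 39.1 to 5289 CPM in B6 and 75.7 to 1879 in 129X1, and thyroid markers reached 43526 CPM in a B6 library.

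The genes spanned a wide range of levels. Per kilobase of transcript, Atp5b was the highest of the 79 (1368 CPM per kb, mean of 36 libraries), and Cox4i2, a complex IV isoform known from lung and oxygen-sensing cells, was the lowest (3.72). Within complexes, the medians on that scale were 162 for complex I, 302 for II, 359 for III, 289 for IV and 291 for V. Complex I ran from Ndufb2 (10.9), an accessory membrane-arm subunit, to Ndufa4 (723), complex III from the core protein Uqcrc2 (280) to the hinge protein Uqcrh (658), and complex IV up to Cox4i1 (842), the common isoform of its subunit 4. These values depend on annotated transcript lengths, with a median of 2413 bases for Ndufb2. The highest library exceeded the lowest by a median of 3.77-fold per gene, from 1.55-fold for Cox7a2l to 176.2-fold for Cox6a2, the muscle isoform of subunit 6a.

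The summed share of counts ran from 0.837% to 2.66% in B6 (median 1.61%) and from 1.80% to 3.24% in 129X1 (median 2.32%). The 9 lowest libraries were all B6 and 8 of the 9 highest were 129X1, but the strains overlapped: 6 B6 libraries lay above the lowest 129X1 library. The lowest was replicate 3 of the B6 prophylactic vehicle group, which also had the lowest Ucp1 (76.1 CPM), and the highest was replicate 2 of the 129X1 prophylactic Val group. All 5 complexes had the same order of strain means: summed CPM was 4440 ± 1214 in B6 and 6435 ± 1062 in 129X1 for complex I, and 1587 ± 547 and 2371 ± 457 for complex II. It was 2008 ± 648 and 3169 ± 588 for complex III, 2676 ± 688 and 3697 ± 671 for IV, and 5462 ± 1435 and 8090 ± 1153 for V (SD, n = 18 each). By treatment, the mean share in B6 was 1.60% under vehicle, 1.38% under Val and 1.87% under Sac/val, and in 129X1 it was 2.38%, 2.41% and 2.34% (n = 6 each).

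**Figure D1:**
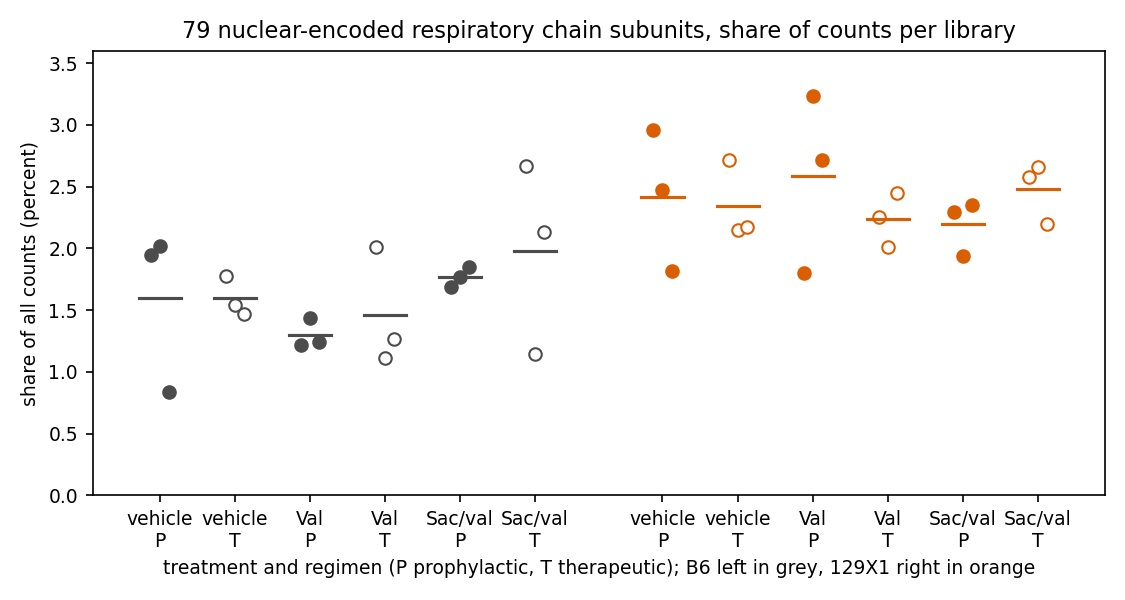
Share of all counts (percent, vertical axis) held by the 79 subunit genes in each of the 36 libraries, by strain, treatment and regimen on the horizontal axis (filled points prophylactic, open points therapeutic, bar the group mean of 3). The B6 libraries lie between 0.837% and 2.66% and the 129X1 libraries between 1.80% and 3.24%.

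The genes moved together from mouse to mouse. Across the 36 libraries, 65 of the 79 had a correlation of 0.9 or more with the mean log2 level of the other members, as a description that includes the strain difference and the shared scaling to library totals. Between pairs of complexes the correlation of mean levels over both strains was 0.92 to 0.996, highest for complexes I and III and lowest for II and IV. Within B6 this correlation was 0.92 to 0.996, and within 129X1 it was 0.75 (II and IV) to 0.99 (I and III). The genes least tied to the rest over both strains together were Ndufa4l2 (-0.48), Cox7a2l (-0.27), Cox4i2 (-0.044), Atp5g1 (0.0087), Cox6b2 (0.23), Cox6a2 (0.35), Atp5g3 (0.44) and Atp5l (0.49). Within B6 their values were, in that order, -0.35, 0.41, 0.15, 0.11, 0.033, 0.51, 0.34 and 0.16. Within 129X1 they were -0.071, 0.52, 0.19, -0.20, 0.50, -0.062, 0.23 and -0.13. Ndufa4l2 is a hypoxia-induced paralog, Cox6b2 the testis isoform of subunit 6b, Atp5g1 and Atp5g3 are among 3 genes for the same c subunit, and Atp5l encodes subunit g.

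Because so many of these genes moved together, their promoters were searched for 5 motifs of factors known for genes of mitochondrial respiration. RefSeq promoters (GRCm38.p6, 250 bases before to 50 after the start) were matched for 65 of the 79 genes, and both strands were searched for exact matches. The NRF1 motif GCGCANGCG was found in 29.2% of the members and 6.43% of 27025 promoters of the same length, and YY1's AAGATGGCG in 10.8% and 1.51%. TCAAGGTCA, bound by estrogen-related receptors, was in 3.08% against 0.392%, CCGGAAGT, bound by GABPA and other ETS factors, in 7.69% against 4%, and the NF-Y box CCAAT in 44.6% against 37.9%. At least 1 of the first 4 named (NRF1, YY1, estrogen-related receptor, ETS) was in 43.1% of the members and 11.4% of all promoters. NRF1 matches fell in 7 of 31 complex I promoters, 2 of 3 of complex II, 2 of 5 of III, 1 of 10 of IV and 7 of 16 of V. The promoters compared with were those of all genes, not matched to the members by expression or base composition. A match is a run of letters, not a measured binding site.

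One promoter per complex is shown, that with the most matches of the motifs other than NF-Y among windows near the annotated gene start, with ties settled by the smaller p of the strain comparison, together with that of Atp5b, the highest gene, whose 300-base window held no NRF1 match but 5 CCAAT boxes. They are Ndufb4 of complex I (chr16:37654319-37654618, minus strand), Sdha, the flavoprotein of complex II (chr13:74350191-74350490, minus), Uqcrc1, a core protein of complex III (chr9:108936398-108936697, plus), Cox6a1, the common isoform of complex IV subunit 6a (chr5:115348909-115349208, minus), Atp5k, subunit e of ATP synthase (chr5:108434350-108434649, minus), and Atp5b (chr10:128083057-128083356, plus). Sequences run 5′ to 3′ on the gene's strand, and capitals mark matches on either strand. Those of Uqcrc1, Cox6a1 and Atp5k include 1 run of capitals in which the forward and reverse NRF1 matches overlap.
Ndufb4: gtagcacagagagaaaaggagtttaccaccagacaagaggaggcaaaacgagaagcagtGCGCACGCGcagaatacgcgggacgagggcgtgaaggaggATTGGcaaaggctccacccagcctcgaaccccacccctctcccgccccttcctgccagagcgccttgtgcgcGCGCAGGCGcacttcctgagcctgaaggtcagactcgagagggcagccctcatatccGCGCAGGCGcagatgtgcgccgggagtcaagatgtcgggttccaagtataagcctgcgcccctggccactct
Sdha: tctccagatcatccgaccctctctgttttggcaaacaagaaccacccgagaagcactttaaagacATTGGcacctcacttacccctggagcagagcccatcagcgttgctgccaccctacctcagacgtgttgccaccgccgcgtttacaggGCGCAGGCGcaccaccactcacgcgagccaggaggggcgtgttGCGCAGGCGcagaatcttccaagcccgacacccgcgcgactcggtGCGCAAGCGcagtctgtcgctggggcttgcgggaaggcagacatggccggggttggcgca
Uqcrc1: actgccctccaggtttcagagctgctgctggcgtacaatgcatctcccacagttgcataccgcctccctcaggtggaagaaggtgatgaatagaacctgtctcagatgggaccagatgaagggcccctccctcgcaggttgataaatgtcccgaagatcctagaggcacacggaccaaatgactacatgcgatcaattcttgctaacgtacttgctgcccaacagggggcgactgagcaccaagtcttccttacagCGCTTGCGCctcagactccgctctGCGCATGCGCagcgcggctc
Cox6a1: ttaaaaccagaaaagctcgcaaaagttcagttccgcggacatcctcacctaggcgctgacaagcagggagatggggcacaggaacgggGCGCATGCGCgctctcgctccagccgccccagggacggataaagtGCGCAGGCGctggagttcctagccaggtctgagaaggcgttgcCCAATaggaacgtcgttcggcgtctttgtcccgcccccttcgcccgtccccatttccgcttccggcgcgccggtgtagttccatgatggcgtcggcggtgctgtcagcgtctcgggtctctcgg
Atp5k: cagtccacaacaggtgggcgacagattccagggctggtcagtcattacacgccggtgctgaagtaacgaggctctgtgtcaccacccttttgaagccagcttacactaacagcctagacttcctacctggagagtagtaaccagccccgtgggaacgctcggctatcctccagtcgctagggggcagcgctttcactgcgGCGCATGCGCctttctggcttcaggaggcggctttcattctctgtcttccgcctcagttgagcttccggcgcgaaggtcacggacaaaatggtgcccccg
Atp5b: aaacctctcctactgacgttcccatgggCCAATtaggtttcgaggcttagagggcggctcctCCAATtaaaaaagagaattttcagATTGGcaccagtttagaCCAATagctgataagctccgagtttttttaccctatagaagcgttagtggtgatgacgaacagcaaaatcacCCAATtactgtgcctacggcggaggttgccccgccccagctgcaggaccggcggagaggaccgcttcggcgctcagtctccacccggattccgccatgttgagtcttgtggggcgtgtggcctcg
The windows of Ndufb4, Sdha and Cox6a1 also held 1 NF-Y box each. Ndufb4 was 0.50 higher in 129X1 on the log2 scale and Atp5b 0.75. Whether matches go with the size of the strain difference was not tested.

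The strain comparison used the mean over treatments and regimens, 18 libraries against 18. In edgeR's quasi-likelihood test with Benjamini-Hochberg adjustment, 70 genes were higher in 129X1, 2 were lower and 7 were not called, where 33.8% of the 18628 genes tested were called (16.3% higher, 17.5% lower). The median log2 difference was 0.58 over the 79 and -0.017 over all genes, with a median 95% half-width of 0.27 for a single member. By complex, 33 of 36 genes of complex I were higher (median 0.58), 4 of 4 of complex II (0.64), 8 of 8 of III (0.74), 10 of 14 of IV (0.55) and 15 of 17 of V (0.55). The differences between these medians were not tested, and the half-width for a single gene does not measure their spread. None of the 79 had strain ranges free of overlap, as 2.02% of all genes did.

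**Figure D2:**
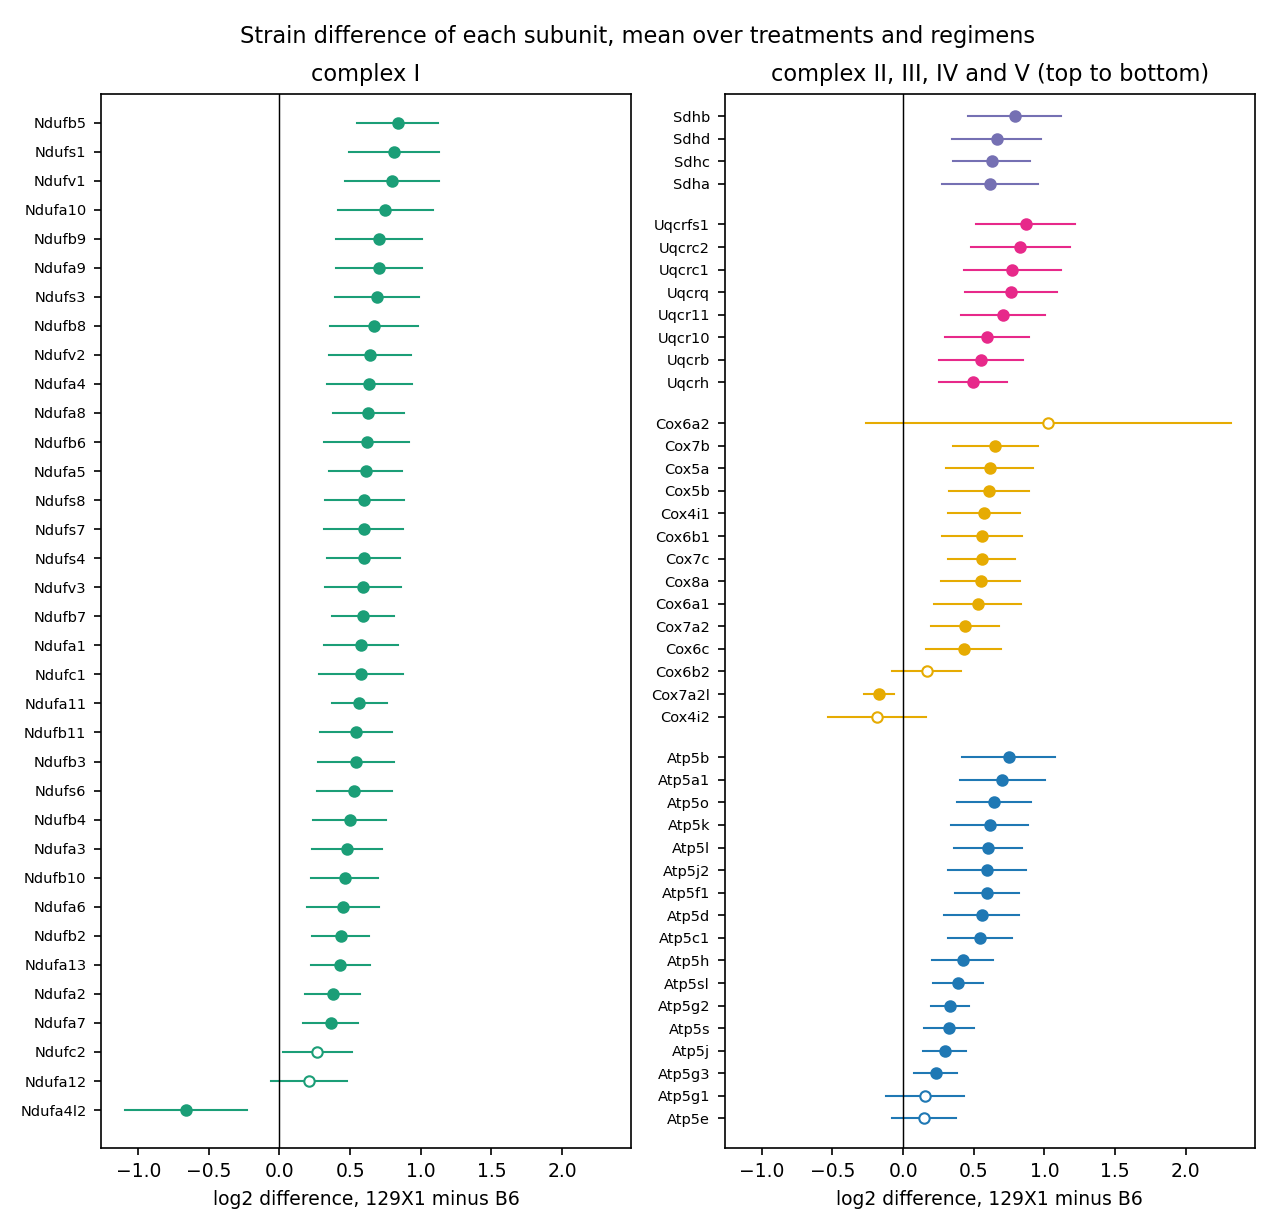
Log2 difference of 129X1 minus B6 for the subunit genes, 1 member not drawn (points, bars the 95% interval), in edgeR's fit over all 36 libraries, with filled points called at an adjusted p below 0.05 and open points not called. The called points sit right of 0 except Ndufa4l2 (-0.66) and Cox7a2l (-0.17), and the widest interval is that of Cox6a2.

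On GRCm38 (GENCODE M21), the genes described here lie at chr3:32736990-32751566 (Ndufb5), chr4:140961203-140979193 (Sdhb), chr13:30540308-30545362 (Uqcrfs1), chr8:120668222-120674207 (Cox4i1) and chr10:128083273-128090391 (Atp5b). In complex I, Ndufb5, an accessory subunit of the membrane arm, had 65.3, 127 and 209 CPM as lowest, median and highest in B6 and 150, 209 and 287 in 129X1. Every 129X1 library lay above the B6 median, and the ranges overlapped. It was higher by 0.84 ± 0.14 (log2, SE; adjusted p = 4.05e-05, edgeR quasi-likelihood). Among the core subunits of the hydrophilic arm, which holds the flavin and iron-sulfur clusters, Ndufs1 had the largest difference (0.81), followed by Ndufv1 (0.80), and both were called higher. The accessory subunits Ndufc2 (0.27) and Ndufa12 (0.21) were not called.

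In complex II, the iron-sulfur protein Sdhb ran from 118 to 505 CPM in B6 (median 272) and from 319 to 652 in 129X1 (median 442). The ranges overlapped, although the lowest 129X1 library was above the B6 median, and the difference was 0.79 ± 0.16 (adjusted p = 0.000424, edgeR quasi-likelihood). The membrane anchors Sdhc and Sdhd were higher by 0.63 and 0.66 and the flavoprotein Sdha by 0.62. In complex III, Uqcrfs1 ran from 122 to 592 CPM in B6 (median 305) and from 354 to 745 in 129X1 (median 527). Its difference was 0.87 ± 0.17 (adjusted p = 0.000281), the largest of the genes called. The core proteins Uqcrc2 and Uqcrc1 differed by 0.83 and 0.77, and the small subunits ranged from 0.50 (Uqcrh) to 0.76 (Uqcrq).

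In complex IV, Cox4i1 ran from 315 to 773 CPM in B6 (median 526) and from 559 to 1121 in 129X1 (median 741), with a difference of 0.57 ± 0.12 (adjusted p = 0.000803, edgeR quasi-likelihood). The ranges overlapped, as for the other members. Cox5a and Cox5b, common subunits of the same complex, differed by 0.61 each. Cox6a2, Cox6b2 and Cox4i2, the tissue isoforms, were not called (1.03, 0.17 and -0.18). In ATP synthase, Atp5b ran from 873 to 3545 CPM in B6 (median 1959) and from 2336 to 4239 in 129X1 (median 3148). It was higher by 0.75 ± 0.16 (adjusted p = 0.000671), and the alpha subunit Atp5a1 by 0.70 and the gamma subunit Atp5c1 by 0.55. The genes of the c ring were closer to 0, with Atp5g2 at 0.33, Atp5g3 at 0.23 and Atp5g1 not called (0.15), as was the epsilon subunit Atp5e (0.15).

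Genes that work with the complexes were mostly higher in 129X1 too. All 16 genes of the citric acid cycle and pyruvate dehydrogenase were called higher (median 0.80), among them Dlat, the acetyltransferase of pyruvate dehydrogenase (1.15), and Cs, citrate synthase (0.71). Of 14 electron carrier genes 12 were higher, including Cycs, cytochrome c (0.79), and Coq5, an enzyme of ubiquinone synthesis (1.13). Fatty acid oxidation had 12 higher and 1 lower of 14, the lower being Cpt1a (-0.30), the liver-type carnitine palmitoyltransferase. Of 7 tested transcripts of the mitochondrial genome, 6 were higher (median 0.63), with mt-Nd1 of complex I at 0.88.

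The assembly factors moved in the same direction, with 13 of 15 higher and 1 lower (Tmem126b, -0.14) for complex I, 4 of 4 for II, 4 of 6 for III, 17 of 18 for IV and 3 of 3 for V. Cox18, an inserter of a complex IV subunit, differed by 0.98 ± 0.082 (adjusted p = 3.17e-10, edgeR quasi-likelihood), more than any complex IV subunit that was called. Of 16 regulators of mitochondrial biogenesis, 7 were higher and 1 lower. Those higher included Esrra (0.64) and Tfam (0.38), a nuclear receptor and the packaging factor of mitochondrial DNA, and the lower one was Pprc1 (-0.39), a coactivator. The coactivator Ppargc1a (0.29), Nrf1 (-0.16), Gabpa (0.24) and Yy1 (-0.025) were not called.

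Markers of some other tissues also differed between strains, where 16.3% of all genes tested were called higher and 17.5% lower. The counts called in the skeletal muscle, fibroblast and thymus lists were not far from these shares. Of 10 brown fat markers, 8 were called higher in 129X1, Elovl3 4.16-fold and Ucp1 2.83-fold, and none was at 0 in every library of a strain. Their summed level ran from 239 to 3577 CPM in B6 (median 1786) and from 1728 to 5743 in 129X1 (median 4008). Of 14 skeletal muscle markers 3 were higher, with summed levels of 105.9 to 27653 CPM in B6 and 34.0 to 41841 in 129X1. The skeletal muscle score had correlations with the 5 complexes of 0.47 to 0.71 within B6 and -0.18 to 0.37 within 129X1. Of 10 macrophage markers 9 were lower in 129X1, with summed levels of 381 to 2454 CPM in B6 and 387 to 1117 in 129X1. The macrophage score had correlations with the 5 complexes of -0.69 to -0.45 within B6 and -0.60 to -0.56 within 129X1. Of 8 white adipocyte markers 4 were higher and 1 lower, with summed levels of 3586 to 11689 CPM in B6 (median 7630) and 6717 to 13058 in 129X1 (median 9431). Their score had correlations with the 5 complexes of 0.57 to 0.77 within B6 and 0.39 to 0.74 within 129X1, as a description over 18 libraries each. Of 7 fibroblast markers 1 was lower, with medians of 14011 and 7773 CPM in B6 and 129X1 and correlations of -0.63 to -0.32 and -0.61 to -0.40. Of 7 B cell markers 6 were higher, of 8 thymus markers 2, and of 7 Schwann cell markers 6 were lower. Apart from the brown fat and skeletal muscle scores below, their part in the subunit differences was not tested. In whole vessels, fewer cells of a type and less RNA per cell cannot be told apart.

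The tie to brown fat markers held within each strain. Over the 18 B6 libraries, log2(CPM + 1) of Atp5b and Ucp1 had Pearson's r = 0.919 (permutation p = 1e-05) and Spearman's rho = 0.917 (permutation p = 1e-05), and over the 18 of 129X1 r = 0.874 (permutation p = 1e-05) and rho = 0.827 (permutation p = 4e-05). Here 1e-05 is the smallest p that 100000 permutations can give. Without the 2 libraries farthest from the median of Ucp1, r was 0.903 in B6 and 0.846 in 129X1. Ndufb5, Sdhb, Uqcrfs1 and Cox4i1 had r between 0.871 and 0.921 in B6 and between 0.770 and 0.888 in 129X1, with Benjamini-Hochberg adjusted p of at most 0.000292 over the 20 correlations computed. Their rho was 0.876 to 0.932 and 0.783 to 0.860 (adjusted permutation p of at most 0.000461), and r without 2 libraries was 0.855 to 0.921 and 0.729 to 0.864. Cox7a2l had r of 0.388 and 0.221 (adjusted p = 0.133 and 0.401, permutation test; rho 0.445 and 0.032) and Ndufa4l2 r of -0.264 and -0.187 (adjusted p = 0.314 and 0.458; rho -0.443 and -0.356).

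Cox6a2, Atp5g1 and Cox4i2 were compared with muscle markers. Of all subunit genes, Cox6a2 (0.95) and Atp5g1 (0.75) had the highest correlations with the skeletal muscle score over both strains together. Cox4i2 (0.53) had the highest with the smooth muscle score. The same libraries gave the correlations below. Their p values, adjusted only over the correlations computed, do not allow for a choice among all subunit genes and serve as a description. Cox6a2 ran from 0.555 to 97.7 CPM in 129X1 and from 0.575 to 77.1 in B6, and its r with Acta1, skeletal muscle actin, was 0.963 in B6 and 0.933 in 129X1 (permutation p = 1e-05 each, rho = 0.959 in both). Its adjusted p was 2e-05, and r without 2 libraries was 0.958 and 0.951. Atp5g1 had r with Acta1 of 0.628 in B6 and 0.778 in 129X1 (adjusted p = 0.00672 and 0.000267, permutation test), with rho of 0.581 and 0.880 and r without 2 libraries of 0.576 and 0.655. For Cox4i2, r with the smooth muscle myosin Myh11 was 0.537 and 0.650 (adjusted p = 0.0269 and 0.00526, permutation test), with rho of 0.769 and 0.653 and r without 2 libraries of 0.640 and 0.691.

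**Figure D3:**
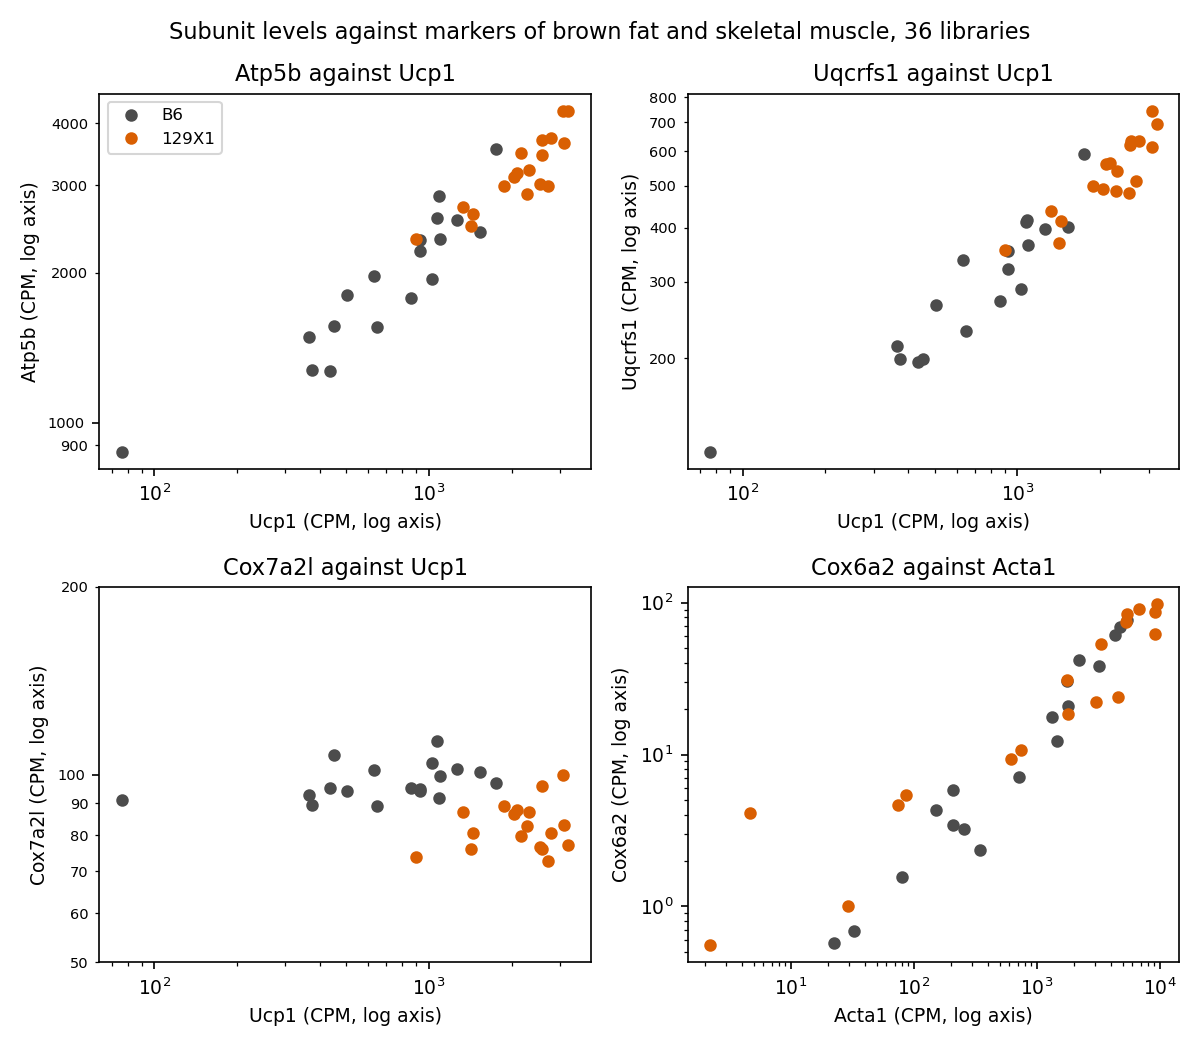
CPM of 3 subunit genes against Ucp1, a brown fat marker, and of Cox6a2 against Acta1, a skeletal muscle marker, in the 36 libraries (log axes, grey B6, orange 129X1). Atp5b and Uqcrfs1 climb with Ucp1 in both strains, Cox7a2l stays between 72.8 and 113.1 CPM, and Cox6a2 climbs with Acta1.

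With the brown fat score of each library as a covariate in the same edgeR fit, 4 of the 79 genes were called between strains, where 10.0% of all genes were, and the median difference was 0.03, with 54 values above 0 and 25 below. Cox7a2l (-0.33), Ndufa12 (-0.34) and Atp5e (-0.30) were lower in 129X1 and Ndufb5 was higher (0.24). The median standard error was 0.076 in this fit and 0.13 without the score. Medians by complex were 0.026, 0.031, 0.073, -0.016 and 0.085 from I to V. With the skeletal muscle score alone, 72 members and 32.1% of all genes were called (members' median 0.56). No member is in the brown fat list, and the score itself differed between strains. Leaving out the 16 libraries with Rag1, in a model of strain, regimen and treatment as separate terms chosen after seeing the data, 67 of the 79 were called, where 31.4% of the 18778 genes tested were.

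**Figure D4:**
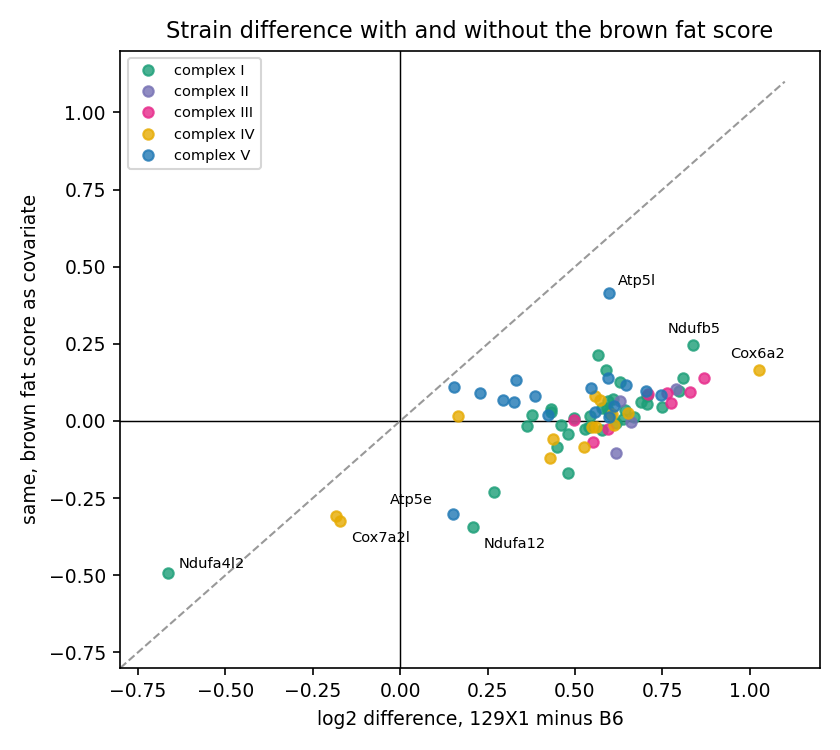
Log2 difference of 129X1 minus B6 for each gene without (horizontal axis) and with (vertical axis) the brown fat score of the library as covariate, coloured by complex, with the dashed line marking equal values. The points gather along 0 on the vertical axis (median 0.03) from a median of 0.58 on the horizontal axis.

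For Ndufa12 and Cox7a2l, the counts of a near-identical processed pseudogene differed between strains. Ndufa12 lies at chr10:94198720-94221443 and Cox7a2l at chr17:83501918-83517330. Gm15920 (GRCm38, chr5:130188395-130188796) matches the Ndufa12 transcript at 99.5% over 402 bases, and had 0.065 CPM in B6 and 29.3 ± 5.67 CPM in 129X1 (SD, n = 18). It held 34.0% to 38.1% of the summed counts of both in the 18 libraries of 129X1 and at most 0.339% in B6, with no overlap. Summed with its copy, in an alternative chosen after seeing the data, Ndufa12 had 47.5 CPM in B6 and 81.4 in 129X1 and was higher by 0.85 ± 0.13 (adjusted p = 1.72e-05, edgeR quasi-likelihood), against 0.21 alone.

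Gm6969 (chr12:24638669-24639010) matches Cox7a2l at 100% over 201 bases and ran from 0.383 to 1.27 CPM in B6 and from 15.8 to 24.3 in 129X1, on average 0.682% and 19.4% ± 1.13 of both. Cox7a2l itself ran from 89.2 to 113.1 CPM in B6 (median 95.4) and from 72.8 to 99.8 in 129X1 (median 81.7). It was lower in 129X1 by -0.17 ± 0.053 (adjusted p = 0.0132, edgeR quasi-likelihood), and with the copy summed the sign turned to 0.13 ± 0.052 (adjusted p = 0.0529). B6 is known to carry a shorter Cox7a2l allele. The reads were aligned to the C57BL/6J reference genome, and whether they map differently in 129X1 was not tested, so the strain values of these genes are uncertain. Copies also held over 10% for Atp5l (8 copies, 12.7%), whose difference was 0.60 alone and 0.58 summed, and at most 0.508% for the other 14 genes with a copy.

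**Figure D5:**
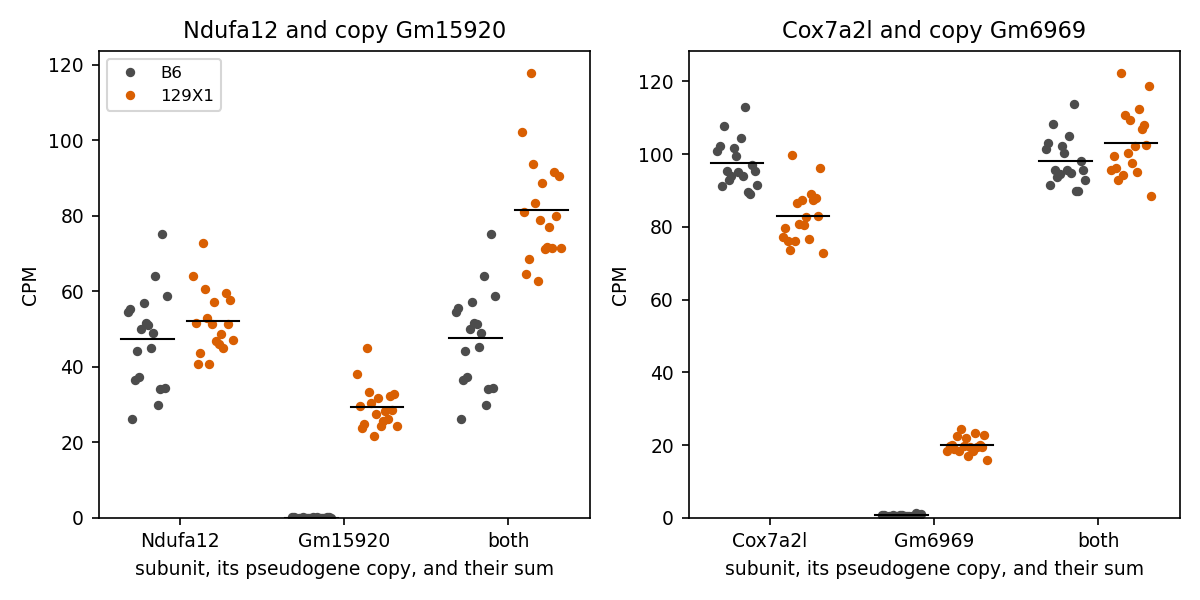
CPM of Ndufa12 and its pseudogene copy Gm15920 (left) and of Cox7a2l and Gm6969 (right) and their sums, each point a library and bars the mean of 18 (grey B6, orange 129X1). In B6 the highest value of either copy is 1.27 CPM, and in 129X1 Gm15920 averages 29.3 CPM and Gm6969 lies between 15.8 and 24.3.

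Paralogs split unevenly within their subunit, by CPM per kb. Cox4i2 made up 0.470% of the 2 Cox4 isoforms over the 36 libraries, and Cox6b2 1.93% of the Cox6b pair. Cox6a2 made up 5.86% of the Cox6a pair on average, but from 0.0893% to 20.03% between libraries. Atp5g3 gave 83.4% ± 1.06 of the c subunit transcripts, Atp5g2 12.7% and Atp5g1 3.90% (SD, n = 36). These shares depend on the median annotated lengths, 718.5 bases for Atp5g3, 586 for Atp5g2 and 2675.5 for Atp5g1. By CPM without length, Atp5g1 (43.3) was above Atp5g2 (30.2). Ndufa4l2 ran from 4.14 to 28.9 CPM in B6 (median 18.7) and from 6.10 to 17.8 in 129X1 (median 8.89), so that the 129X1 range lay inside that of B6. It was lower in 129X1 by -0.66 ± 0.21 (adjusted p = 0.0154, edgeR quasi-likelihood), and its share of the Ndufa4 pair was 3.46% in B6 and 1.34% in 129X1.

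Within treatments, each with 6 libraries per strain, the strain difference had medians of 0.56 under vehicle, 0.87 under Val and 0.26 under Sac/val. Under vehicle 13 genes were called, all higher in 129X1, where 13.5% of all genes were called and 7.02% were called higher, against 16.5% of the members. At an unadjusted p below 0.05 stood 63 members and 5358 of the 18628 genes. The 13 were Ndufs1, Ndufb5, Ndufv1, Ndufa11, Ndufb7, Uqcrfs1, Uqcrc2, Atp5l, Atp5g2, Atp5f1, Atp5a1, Atp5sl and Atp5b, with differences from 0.36 (Atp5g2) to 0.96 (Ndufs1), and none of complex II or IV passed. Sdhb, at 0.81 ± 0.28, had an adjusted p of 0.0523 (edgeR quasi-likelihood). With the brown fat score as covariate 3 members and 4.60% of all genes were called, and DESeq2 called 34 members and 17.8% of all genes.

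The count under vehicle rested on single libraries. It was 1 without replicate 3 of the B6 prophylactic vehicle group or replicate 1 of the 129X1 therapeutic vehicle group, and 2 without replicate 1 of 129X1 prophylactic vehicle or replicates 2 or 3 of B6 therapeutic vehicle, left out 1 at a time. It was 3 without replicate 2 of 129X1 prophylactic vehicle and 49 without replicate 3 of that group. It was 27 without replicate 2 of B6 prophylactic vehicle, 20 without replicate 1 of B6 therapeutic Val, and 21 and 29 without replicates 1 and 2 of B6 therapeutic Sac/val. The shares of all genes called in these fits are not given here. Whether the members' counts changed more than those shares was not tested.

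Under Val, 70 of the 79 were called higher in 129X1, where 20.9% of all genes were called and 11.3% were called higher. Ndufb5 differed by 1.16 ± 0.24 and Uqcrq, a small complex III subunit, by 1.17 ± 0.27 (adjusted p = 0.00149 and 0.00413, edgeR quasi-likelihood). The 9 not called were Ndufc2, Ndufa12, Ndufa4l2, Cox6a2, Cox7a2l, Cox4i2, Cox6b2, Atp5e and Atp5l. Cox6a2 ran from 0.692 to 41.7 CPM in B6 (median 3.88) and from 4.66 to 97.7 in 129X1 (median 80.5), a difference of 3.09 with an adjusted p of 0.0590. The brown fat markers had a median difference of 1.44 and the skeletal muscle markers of 3.65 in this comparison. With the brown fat score as covariate 1 subunit gene and 4.79% of all genes were called (members' median 0.16). Under Sac/val none was called, where 6.26% of all genes were. An unadjusted p below 0.05 was found for 6 members and for 3695 of the 18628 genes. DESeq2 called 0 members and 9.76% of all genes. The smallest p values were those of Atp5l (0.56), Ndufa11 (0.44) and Ndufb5 (0.53), with adjusted p from 0.106 to 0.216 (edgeR quasi-likelihood), and 1 gene was called without replicate 1 of the B6 prophylactic Val group.

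The differences between the treatments in this strain effect were tested directly. For Sac/val against Val, added after the values were seen, the interaction with strain had a median of -0.59 over the 79. No member and 0% of all genes were called by edgeR, and DESeq2 called 0 of the 79 and 410 genes in all. An unadjusted p below 0.05 was found for 22 members and for 3565 of the 18628 genes. Atp5g1 (-0.87), Atp5s (-0.55) and Atp5g3 (-0.44) had the smallest p (adjusted p = 0.186 to 0.203, edgeR quasi-likelihood). For Sac/val against vehicle the median interaction was -0.29 and for Val against vehicle 0.31. Both had 0 calls among the members and 0% of all genes, and DESeq2 called none of the members. At an unadjusted p below 0.05 stood 0 members and 651 genes for Sac/val, and 2 members and 960 genes for Val. The median 95% half-width of an interaction was 0.67, wide against the medians.

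The drug comparisons, as means over strains and regimens with 12 libraries a treatment, called no member and 0% of all genes in each case, with 0 members at an unadjusted p below 0.05 and none called by DESeq2. They share libraries with each other. The median was 0.12 for Sac/val minus vehicle, with 77 of the 79 above 0, -0.12 for Val minus vehicle, with 70 below 0, and 0.24 for Sac/val minus Val, with 75 above 0, and the half-width of a single gene was 0.33 in all 3. For Sac/val against vehicle, the smallest p belonged to Ndufa2 (0.16), Atp5k (0.20) and Ndufb7 (0.15). For Val against vehicle they belonged to Atp5g1 (0.32), Atp5g3 (0.16) and Sdha (-0.30), and for Sac/val against Val to Sdha (0.39), Uqcrc1 (0.38) and Ndufb8 (0.35). The adjusted p was at or above 0.908 for all of them (edgeR quasi-likelihood).

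Within B6, a comparison added after the values were seen, Sac/val against Val gave larger differences. Atp5b ran from 1275 to 2580 CPM under Val (median 1561), from 1271 to 3545 under Sac/val (median 2275) and from 873 to 2554 under vehicle (median 2138). The 3 ranges overlapped widely, and the lowest of all was a vehicle library. The difference of Sac/val minus Val was 0.61 for Atp5b (95% interval 0.048 to 1.18, adjusted p = 0.183, edgeR quasi-likelihood), and 77 of the 79 were above 0 with a median of 0.56. No member and 0% of all genes were called by edgeR. At an unadjusted p below 0.05 stood 66 members and 4346 of the 18628 genes, and DESeq2 called 0 members and 775 genes in all. Sdha differed by 0.77, Uqcrc1 by 0.75, Cox6a2 by 2.41 and Ndufa2, with the smallest p, by 0.47 (adjusted p = 0.146).

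Tissue markers also differed between these B6 libraries. The summed brown fat markers ran from 815 to 2133 CPM under Val (median 1189) and from 886 to 3577 under Sac/val (median 2050). The skeletal muscle markers ran from 190 to 11881 CPM (median 987) and from 105.9 to 27653 (median 15044). The lists' median differences were 0.86 and 2.82, with none of 10 and none of 14 called. Thymus markers ran from 67.9 to 5289 CPM under Val and from 69.9 to 144 under Sac/val, and thyroid markers from 7.82 to 4970 and from 8.39 to 29.0. Their part in the result was not tested for these last lists. With the brown fat score as covariate the members' median was 0.05. In 129X1, Sac/val minus Val had a median of -0.05, with no member and 0% of all genes called by edgeR and none called by DESeq2. An unadjusted p below 0.05 was found for 2 members and for 318 of the 18628 genes. Atp5b differed there by -0.0076 (95% interval -0.57 to 0.56), and the 2 members were Atp5g1 (-0.62) and Atp5g3 (-0.29).

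The therapeutic minus the prophylactic regimen, 18 libraries each, gave a median of 0.04 with a half-width of 0.27 for a single gene. No member and 0% of all genes were called, no member had an unadjusted p below 0.05, and DESeq2 called none of the members. Cox6a2 (0.86, 95% interval -0.43 to 2.15), Atp5g1 (0.14) and Atp5j (0.072), subunit F6 of the ATP synthase stalk, had the smallest p. The interaction of strain and regimen had a median of -0.13, again with no member and 0% of all genes called, none at an unadjusted p below 0.05 and none called by DESeq2. The regimens differ in both the length and the start of dosing, which cannot be told apart.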

How the data were processed

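RNA from 36 ligated carotid arteries was sequenced from TruSeq Stranded mRNA libraries, per the labels' protocols. The authors deposited 1 table of raw read counts per gene symbol. Trimmomatic 0.36, STAR 2.5.2b, Subread 1.5.0p3 with featureCounts, and GRCm38 are named in the submitters' processing notes, and strand setting, treatment of multimapping reads and annotation release are not given in the sources used here. CPM was computed as count over column total. Genes passing edgeR's filterByExpr were fitted with TMM scaling and 12 group means in edgeR 4.0.16 (R 4.3.3, limma 3.58.1), using the quasi-likelihood test with Benjamini-Hochberg adjustment over all genes tested and a threshold of 0.05, which left 24 residual degrees of freedom. The fit was tested on simulated data. DESeq2 1.42.0, other scaling and filters, marker scores as covariates and each library left out were alternatives. Fits without Rag1 libraries on separate terms and with pseudogene copies summed, and the Sac/val against Val contrasts within strains, were added after seeing the data. Copies had at least 95% identity over 100 bases. Levels per kilobase used the median protein-coding transcript length of GENCODE M21. The members and lists were chosen with earlier results of these data known. Named genes were core subunits, tissue isoforms, the 2 members per complex with the smallest p at a mean of at least 5 CPM, members called against the majority and, where none passed, the 3 with the smallest p. Genes with copies or named as examples of a range, list or promoter were chosen after their values were seen. The values of 1 member are not reported here.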

Additional observations from a re-analysis of the deposited data

How the results depend on the processing

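The strain difference over all treatments was called for 72 to 73 of the 79 genes with any 1 library left out, for 72 by DESeq2 and 71 with no filter, but for 4 with the brown fat score as covariate and 5 with the skeletal muscle score added. In this comparison DESeq2 called 37.2% of all genes, and 17.8% of 34625 genes were called with no filter. Under vehicle the 13 calls became 34 by DESeq2, 3 with no filter on low counts, 3 with the brown fat score, 4 with both scores, 36 with animal number as covariate, 2 in a fit of only the libraries compared, 0 without the 16 Rag1 libraries, and 1 to 49 with 1 library left out. Under Val 70 became 1 with the brown fat score, 1 with both, and 60 to 75 with 1 library left out. Under Sac/val 0 became 3 with the brown fat score, 2 with both, 1 with animal number, and 0 to 1 with 1 library left out. The cause was not tested. Of the 79 genes, 22 turned from above to below 0 for strain over all treatments with the brown fat score and 28 with both scores, among them Ndufa12 (-0.34 and -0.34), Atp5e (-0.30 and -0.29), Ndufc2 (-0.23 and -0.25) and Cox6c (-0.12 and -0.13). Of the genes named by rule, the sign turned with the brown fat score and with both scores for Sdhd (-0.0032 and -0.032), Cox5a (-0.014 and -0.029), Sdha (-0.10 and -0.13), Cox6a1 (-0.084 and -0.14), Cox6b1 (-0.020 and -0.041) and Cox7a2 (-0.058 and -0.075), and with both scores for Ndufs8 (-0.0014), Cox6b2 (-0.0085) and Ndufa4 (-0.010). Cox7a2l turned to 0.13 with its copy summed. Under vehicle it turned with the brown fat score and with both for Sdhb (-0.017 and -0.048), Sdhc (-0.030 and -0.047), Uqcrc2 (-0.0054 and -0.028), Cox4i1 (-0.025 and -0.054) and Cox7b (-0.092 and -0.11), and with both for Uqcrfs1 (-0.011). Leaving out the Rag1 libraries leaves 129X1 therapeutic Val with none, so comparisons that use that group were not run under it. Of all genes, 4.65% were called under vehicle with both scores, 18.6% with animal number, 5.58% with no filter, 13.8% in the fit of only the libraries compared and 3.81% without Rag1 libraries. With both scores 10.2% were called over all treatments, 4.57% under Val and 5.55% under Sac/val, where 6.26% were called with the brown fat score and 8.91% with animal number. Shares of all genes are not given for the fits with 1 library left out, so those member counts stand without them. No paired analysis was possible because the labels give only animal numbers, which no groups share, and the replicate numbers used here were given in accession order to name libraries.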
